A study of Homo sapiens with 9 samples.

Results

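Amino acid transporters of the plasma membrane were examined as a family of 10 genes, SLC7A11, SLC7A5, SLC3A2, SLC43A1, SLC7A1, SLC38A1, SLC38A2, SLC1A5, SLC1A4 and SLC6A9. They were taken by symbol from the 58735 genes of the deposited tables, in which each symbol stood on 1 row. Gene positions are those of the tables, on the build hg38. The cells were PaTu 8988t, an established human pancreatic tumour line, exposed to extracellular matrix of 3 kinds with 3 libraries each. The first matrix contained wild-type CPXM2 (labelled CPXM2WT OE ECM), the second contained the variant R213A of the same protein (labelled CPXM2R213A OE ECM), and the third was the control matrix (labelled Ctrl ECM). CPXM2 is a secreted protein of the carboxypeptidase family, and the series title places it in the alignment of collagen. All groups shared the line, a DMEM medium with serum and antibiotics, and the library kit. The cells that laid down the matrix, the time spent on it and the number of separate cultures have no entry in the labels. The spread behind each p-value is thus that among these libraries and may be technical in part.

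Cells take up amino acids through families of solute carriers that differ in substrate and in coupling. SLC7A5 and SLC7A11 are light chains that reach the membrane bound to the heavy chain SLC3A2, the first exchanging glutamine for leucine and other large neutral amino acids, the second exchanging glutamate for cystine, the source of cysteine for glutathione. SLC1A5, SLC38A1 and SLC38A2 carry glutamine and other neutral amino acids, SLC7A1 carries arginine and lysine, SLC1A4 carries serine, alanine and cysteine, SLC43A1 carries leucine without a heavy chain, and SLC6A9 carries glycine. Pancreatic tumours are known for a high demand for glutamine and cystine, and several of these genes are known targets of ATF4, a transcription factor of the response to amino acid shortage.

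The values came as fragments normalised to gene length and library size (FPKM) in a pair of tables with no stated reason for the division. One table held 4 libraries (wild type 1, R213A 1 and 3, control 1) and the other held 5 (wild type 2 and 3, R213A 2, control 2 and 3). Recovered totals lay between 15951927 and 18312806 reads per library, and 20059 to 21401 genes had reads. The labelled cell type was set against marker lists: 7 of 10 epithelial and tumour line markers passed the filter on low values, with KRT18 at a mean of 348 FPKM, KRT8 at 153 FPKM and vimentin (VIM) at 138 FPKM. KRT7 reached at most 0.468 FPKM, KRT19 0.0717 FPKM and CDH1 0.136 FPKM in any library, so these defining epithelial markers were near 0. None of 10 fibroblast, 10 immune and 7 endothelial markers passed the filter, and their highest values were 1.02, 0.195 and 0.731 FPKM. FAP, CD3E and ERG were at 0 in all 9 libraries.

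Summed over the family, levels were 740.2 to 1045 FPKM on wild-type matrix, 476 to 1028 FPKM on R213A matrix and 441 to 1088 FPKM on control matrix. SLC43A1, SLC1A4 and SLC6A9 added little to these sums, with means of 6.22, 5.31 and 3.91 FPKM over the 9 libraries. FPKM is a level per gene length, so levels were set beside each other within a library. The gap between the tables moved with gene length (below), which limits such ranks and ratios for genes of unlike length. In the 4-library table SLC7A5, SLC3A2 and SLC1A5 held the first 3 places in every library, and SLC7A11 stood in the 7th or 8th place. In the 5-library table SLC38A2 came first in every library, and SLC7A5 second. SLC6A9 was the lowest member in wild type 1, R213A 1, R213A 3, control 1 and control 2, and SLC43A1 in the other 4 libraries. All 10 members had a mean of at least 1 FPKM over the 9 libraries and entered the test, among 11193 genes that did.

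The heavy chain SLC3A2 (ENSG00000168003, chr11:62856102-62888875, plus strand) had 209 FPKM in wild type 1, 134 and 157 FPKM in R213A 1 and 3, and 74.2 FPKM in control 1. In the second table its level was 139.5 and 156 FPKM in wild type 2 and 3, 139.6 FPKM in R213A 2, and 98.0 and 147 FPKM in control 2 and 3. Controls 1 and 2 were the lowest libraries of their tables, while control 3 lay between wild type 2 and wild type 3, so the groups overlapped. Over all 9 libraries SLC3A2 averaged 168 ± 36.3 FPKM on wild-type matrix, 143 ± 11.9 FPKM on R213A matrix and 106 ± 37.0 FPKM on control matrix (SD, n = 3 each). Group means here and below pool both tables, between which the groups were split unevenly. Differences in the fit were formed within tables.

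Its partner SLC7A5 (ENSG00000103257, chr16:87830023-87869488, minus strand), the leucine and glutamine exchanger, had 227 FPKM in wild type 1, 125 and 259 FPKM in R213A 1 and 3, and 109 FPKM in control 1. In wild type 2 and 3 it had 161 and 169.8 FPKM, in R213A 2 160.0 FPKM, and in control 2 and 3 168 and 169.9 FPKM. The R213A libraries of the first table lay on either side of wild type 1, and the 5 libraries of the second table were level. The group means were 186 ± 36.0, 181 ± 69.6 and 149 ± 34.4 FPKM on wild-type, R213A and control matrix (SD, n = 3 each). SLC7A5P1, an unprocessed pseudogene that may share reads with SLC7A5, was listed at 0.304 to 7.37 FPKM, a small part of the SLC7A5 level.

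SLC7A11 (ENSG00000151012, chr4:138164097-138242349, minus strand), the cystine and glutamate exchanger, had 10.8 FPKM in wild type 1, 7.54 and 12.8 FPKM in R213A 1 and 3, and 16.3 FPKM in control 1. In the 5-library table the values were 84.0 and 73.5 FPKM in wild type 2 and 3, 79.3 FPKM in R213A 2, and 33.1 and 87.8 FPKM in control 2 and 3. The control library was the highest of the first table, whereas the controls of the second table held both its lowest and its highest value. Group means of SLC7A11 mixed these levels and came to 56.1 ± 39.6 FPKM on wild-type matrix, 33.2 ± 40.002 FPKM on R213A matrix and 45.7 ± 37.4 FPKM on control matrix (SD, n = 3 each). Its antisense transcript SLC7A11-AS1 stayed at or below 0.130 FPKM. Per unit of SLC3A2 the level of SLC7A11 was 0.0519 in wild type 1, 0.0563 and 0.0814 in R213A 1 and 3, and 0.220 in control 1, while in the second table it was 0.602 and 0.473 in wild type 2 and 3, 0.568 in R213A 2, and 0.338 and 0.598 in control 2 and 3.

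SLC43A1 (ENSG00000149150, chr11:57484534-57515786, minus strand), the leucine carrier that needs no heavy chain, had 11.7 FPKM in wild type 1, 8.70 and 10.2 FPKM in R213A 1 and 3, and 4.06 FPKM in control 1. The second table gave 4.11 and 4.66 FPKM in wild type 2 and 3, 4.03 FPKM in R213A 2, and 3.98 and 4.49 FPKM in control 2 and 3. The 3 CPXM2 libraries of the first table stood above its control by 2.14 to 2.89 times, and the 5 libraries of the second table did not separate by group.

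SLC7A1 (ENSG00000139514, chr13:29509410-29595688, minus strand), the arginine and lysine carrier, had 35.2 FPKM in wild type 1, 21.2 and 38.3 FPKM in R213A 1 and 3, and 55.4 FPKM in control 1. Its values were 88.2 and 85.3 FPKM in wild type 2 and 3, 89.4 FPKM in R213A 2, and 70.0 and 91.9 FPKM in control 2 and 3. The control library was highest in the first table, and the controls of the second table lay at both ends of its range.

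Of the glutamine carriers, SLC38A2 (ENSG00000134294, chr12:46358189-46372867, minus strand) had 46.1 FPKM in wild type 1, 27.0 and 42.0 FPKM in R213A 1 and 3, and 59.8 FPKM in control 1, against 307 and 299.96 FPKM in wild type 2 and 3, 303 FPKM in R213A 2, and 214 and 328 FPKM in control 2 and 3. SLC38A1 (ENSG00000111371, chr12:46183063-46270017, minus strand) had 30.6 FPKM in wild type 1, 14.3 and 26.4 FPKM in R213A 1 and 3, and 32.0 FPKM in control 1, against 109 and 100.4 FPKM in wild type 2 and 3, 108 FPKM in R213A 2, and 61.1 and 106 FPKM in control 2 and 3. Both genes had their lowest value of the first table in R213A 1 and of the second in control 2, and the second table did not separate by group. SLC1A5 (ENSG00000105281, chr19:46774883-46788594, minus strand), the third glutamine carrier, had 154 FPKM in wild type 1, 135 and 169.8 FPKM in R213A 1 and 3, and 86.5 FPKM in control 1. Its second set was narrower, with 135 and 143 FPKM in wild type 2 and 3, 134 FPKM in R213A 2, and 115 and 142 FPKM in control 2 and 3. Controls 1 and 2 were again the lowest of their tables, and control 3 lay between wild type 2 and wild type 3.

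SLC1A4 (ENSG00000115902, chr2:64988477-65023865, plus strand), the serine, alanine and cysteine carrier, had 9.37 FPKM in wild type 1, 2.28 and 7.46 FPKM in R213A 1 and 3, and 2.57 FPKM in control 1. It had 5.66 and 6.50 FPKM in wild type 2 and 3, 5.84 FPKM in R213A 2, and 2.32 and 5.80 FPKM in control 2 and 3. R213A 1, control 1 and control 2 shared a low level, and the other 6 libraries were at 5.66 FPKM or above. The group means were 7.18 ± 1.94 FPKM on wild-type matrix, 5.19 ± 2.65 FPKM on R213A matrix and 3.56 ± 1.94 FPKM on control matrix (SD, n = 3 each).

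SLC6A9 (ENSG00000196517, chr1:43991500-44031467, minus strand), the glycine carrier, showed the same 3 low libraries, with 6.70 FPKM in wild type 1, 1.26 and 3.66 FPKM in R213A 1 and 3, and 0.827 FPKM in control 1. Its second table gave 4.96 and 5.66 FPKM in wild type 2 and 3, 4.76 FPKM in R213A 2, and 1.85 and 5.54 FPKM in control 2 and 3. These values rested on few reads at the low end: wild type 1 had 668 reads (exact Poisson 95% interval 618 to 721), R213A 1 had 88 (70.6 to 108) and control 1 had 80 (63.4 to 99.6), intervals that cover counting error only. The group means were 5.77 ± 0.874, 3.22 ± 1.79 and 2.74 ± 2.48 FPKM on wild-type, R213A and control matrix (SD, n = 3 each). CCDC24, which overlaps SLC6A9 on the opposite strand, was at 0.943 to 5.31 FPKM. No label names the strand setting of the counting, so reads of this pair cannot be told apart.

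**Figure D1:**
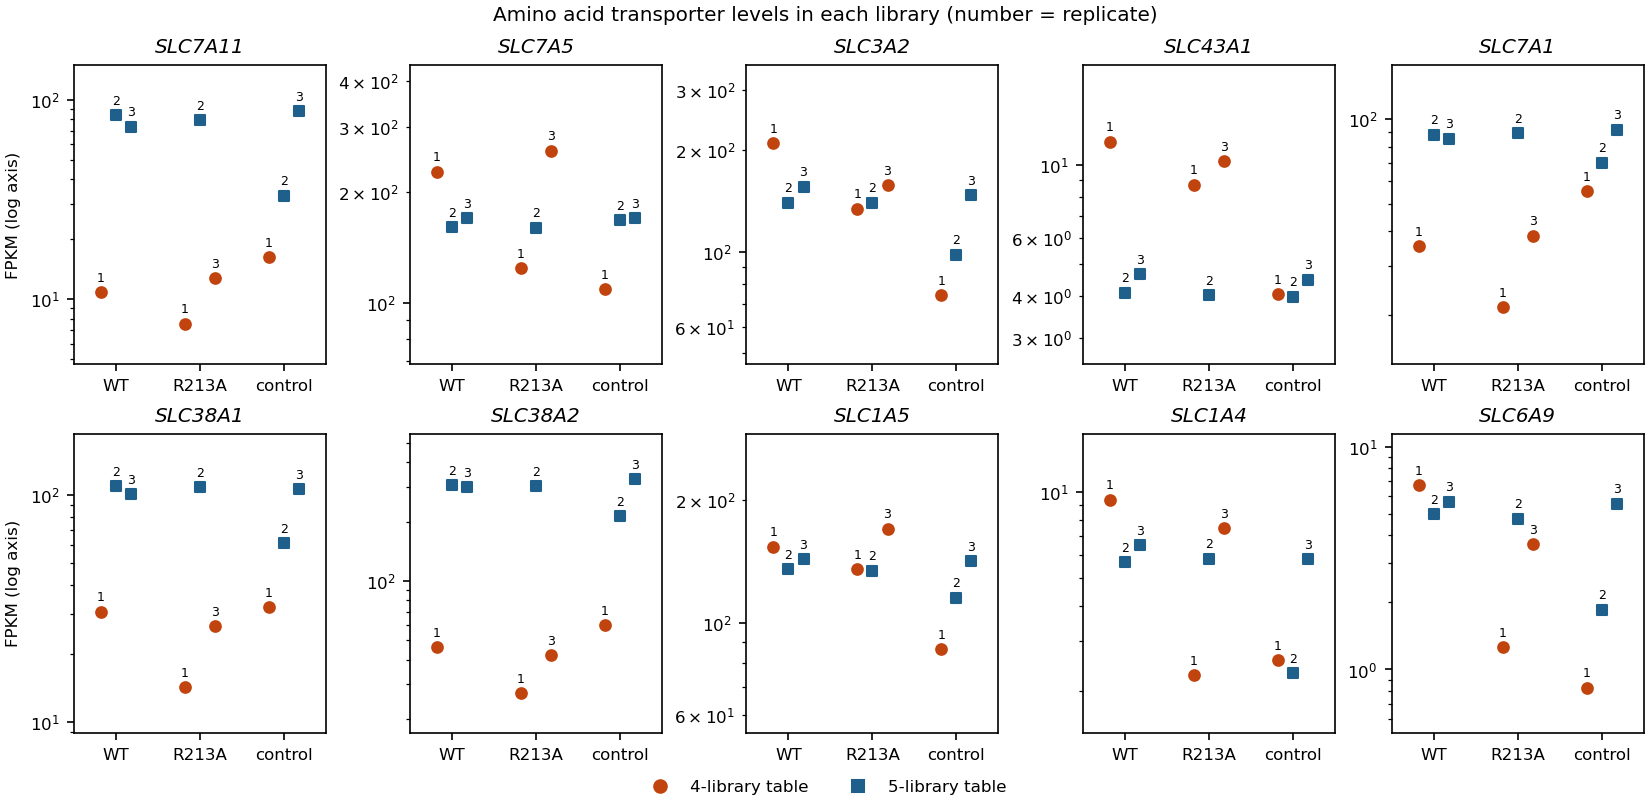
Level of each transporter (FPKM, log axis, 1 panel per gene) in the 9 libraries by matrix (CPXM2 wild type, R213A, control), each point a library marked with its replicate number, orange circles for the 4-library table and blue squares for the 5-library table. SLC7A11, SLC7A1, SLC38A1 and SLC38A2 separate by table, from 7.54 to 16.3 against 33.1 to 87.8 FPKM for SLC7A11, and SLC1A4 and SLC6A9 are low in R213A 1, control 1 and control 2.

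Cells on wild-type CPXM2 matrix showed no transporter past the threshold against cells on control matrix. The fit was made with limma on log2(FPKM + 1) over 11193 genes, with the group and the table as terms, and a gene was called at a Benjamini-Hochberg adjusted p under 0.05. It called 0 of 10 members and 0 of 11193 genes (0%), and 503 genes (4.49%) had an unadjusted p under 0.05, of which 252 (2.25%) were higher on wild-type matrix. Of the members, 3 were among these 252 genes: SLC6A9 with a log2 difference of 1.05 ± 0.41, SLC3A2 with 0.69 ± 0.28 and SLC1A4 with 0.89 ± 0.39 (SE, limma adjusted p = 0.757 for each). Their 95% intervals ran over 0.14 to 1.97, 0.06 to 1.32 and 0.03 to 1.76. The estimate was above 0 for 9 of 10 members, with a median of 0.34 against -0.03 over all genes tested.

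The remaining estimates were 0.47 for SLC43A1, 0.36 for SLC1A5, 0.33 for SLC7A5, 0.23 for SLC38A1, 0.17 for SLC7A11, 0.01 for SLC38A2 and -0.14 for SLC7A1 (SE 0.24 to 0.39, limma adjusted p 0.757 to 0.994). For SLC7A11 the interval of -0.69 to 1.04 leaves room for changes of either direction. Intervals of the members reached 0.53 to 0.91 to either side, against a median of 0.48 over all genes.

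Both tables gave a positive difference for SLC6A9 (2.07 from 4 libraries and 0.54 from 5), SLC1A4 (1.54 and 0.57) and SLC3A2 (1.48 and 0.29). In the first table each of these was wild type 1 minus control 1, with wild type 1 the highest library. In the second each rested on the low level of control 2. Without control 2 the 5-library table gave -0.05 for SLC6A9, 0.06 for SLC1A4 and 0.01 for SLC3A2. SLC7A11 had opposite signs in the tables, -0.55 in the first and 0.53 in the second, and the second gave -0.16 without control 2. The same contrast of signs held for SLC38A2 (-0.37 and 0.20), SLC7A1 (-0.64 and 0.11) and SLC38A1 (-0.06 and 0.37). Leaving out a single library called 0 genes in each case, but the number at an unadjusted p under 0.05 became 73 when wild type 1 was left out, 116 when control 1 was and 1378 when control 3 was. The same number was 372 of 11193 without control 2, 500 without wild type 2 and 347 without wild type 3. Without R213A 1, 2 and 3 it was 617, 406 and 341. The number of members among these genes was 0 without wild type 1, control 1 or control 2, and 4 without control 3. It was 3 without wild type 2, 1 without wild type 3, and 3, 2 and 3 without R213A 1, 2 and 3.

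Within the 4-library table, wild type 1 exceeded control 1 at least 2-fold on the log2(FPKM + 1) scale for SLC7A5, SLC3A2, SLC43A1, SLC1A4 and SLC6A9, 5 of 10 members against 7.79% of all genes tested. No member was at least 2-fold lower, against 8.84% of genes. In FPKM the ratio was 8.10 for SLC6A9, 3.64 for SLC1A4, 2.89 for SLC43A1, 2.81 for SLC3A2 and 2.08 for SLC7A5. A fit of this table alone takes its spread from R213A 1 and 3 only and has 1 residual degree of freedom. It called 775 genes (6.92%), with SLC6A9 at 2.07 (limma adjusted p = 0.000112) and SLC1A4 at 1.54 (limma adjusted p = 0.0266) among them. The lone wild-type and control libraries are assumed to vary like the R213A pair in that fit.

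In the 5-library table, wild type 2 was at least 2-fold above control 2 for SLC7A11, SLC1A4 and SLC6A9 (1.83% of genes) and wild type 3 for the same members (2.03%). Against control 3 neither wild-type library differed 2-fold for any member (0.232% of genes higher for wild type 2 and 0.357% for wild type 3). No member had both wild-type libraries above both controls, against 15.0% of genes, and none had both below, against 15.4%. Control 2 was the lowest library of its table for 9 of 10 members, all but SLC7A5, against 37.2% of genes, and the highest for 0 members, against 43.7% of genes. Relative to the mean of the other 4 libraries, SLC6A9 in control 2 stood at 0.354, SLC1A4 at 0.389, SLC7A11 at 0.408, SLC38A1 at 0.578, SLC3A2 at 0.674 and SLC38A2 at 0.691 times the level. The other 4 libraries of that table lay within a coefficient of variation of 3.11% for SLC7A1 to 8.37% for SLC6A9.

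**Figure D2:**
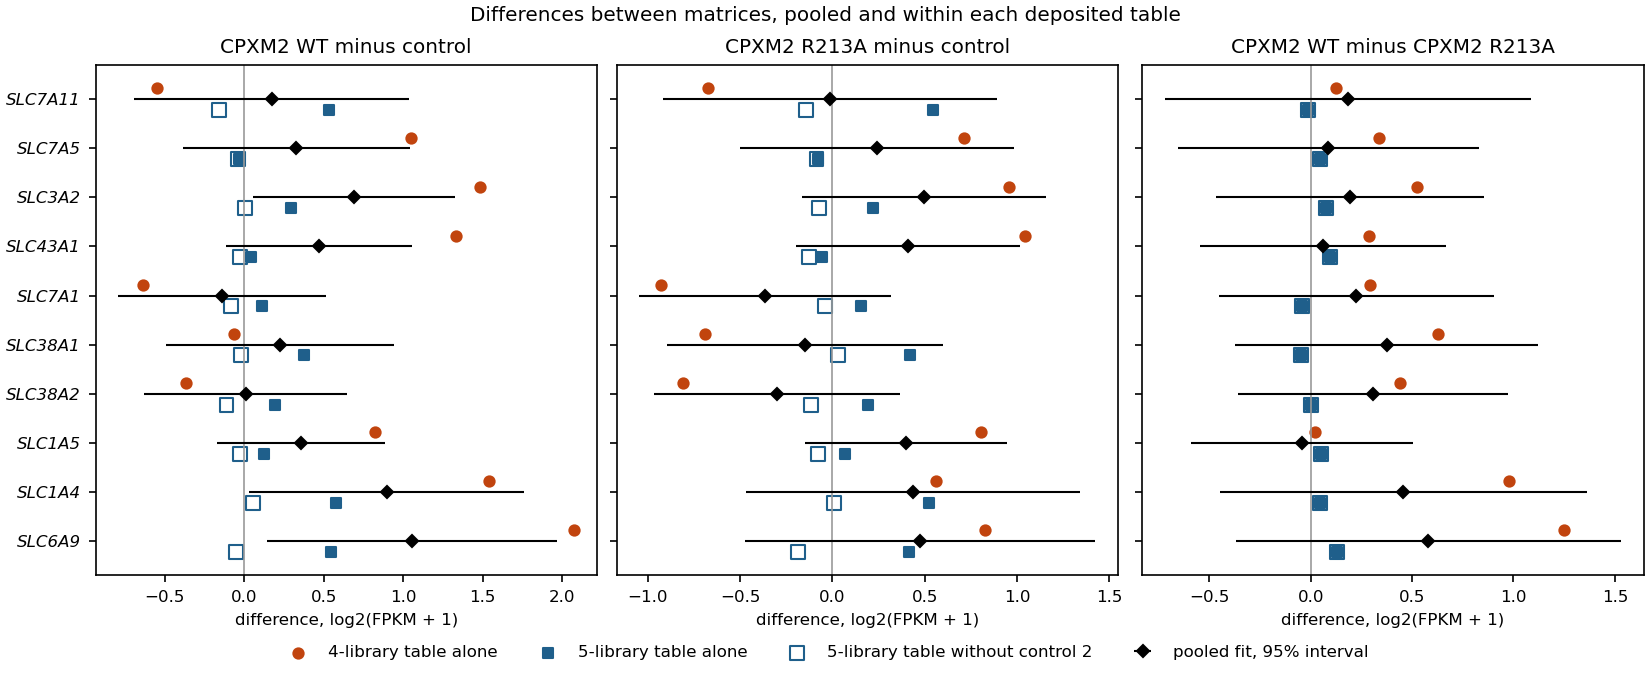
Differences in log2(FPKM + 1) for wild-type minus control, R213A minus control and wild-type minus R213A matrix (panels left to right), 1 row per gene, with the pooled limma estimate and its 95% interval (black), the 4-library table alone (orange), the 5-library table alone (filled blue) and that table without control 2 (open blue). Open squares of the first panel lie between -0.16 and 0.06 for all 10 genes, while the values of the first table span -0.64 to 2.07.

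Cells on R213A matrix likewise had no transporter past the threshold against control matrix, by the same limma fit. It called 0 of 10 members and 0 of 11193 genes (0%), and 341 genes (3.05%) had an unadjusted p under 0.05, with 0 members among them. The pooled estimate was highest for SLC3A2 at 0.50 ± 0.29 (SE, limma adjusted p = 0.690), then SLC6A9 at 0.47, SLC1A4 at 0.44, SLC43A1 at 0.41, SLC1A5 at 0.40 and SLC7A5 at 0.24. It was lowest for SLC7A1 at -0.36 ± 0.30 (limma adjusted p = 0.692), then SLC38A2 at -0.30, SLC38A1 at -0.15 and SLC7A11 at -0.01. The members' median was 0.32, against -0.02 over all genes tested. It was 0.06 without control 1, 0.07 with 5 members higher and 5 lower without R213A 3, and -0.08 in the 5-library table without control 2. The number of genes at an unadjusted p under 0.05 was 99 and 1123 on leaving out R213A 1 and R213A 2, 184 and 178 on leaving out wild type 2 and wild type 3, and 114 and 1096 on leaving out control 1 and control 3. Members among them numbered 2 in the last case and 0 in the others.

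The R213A libraries of the first table differed from each other. R213A 3 was at least 2-fold above control 1 for SLC7A5, SLC3A2, SLC43A1, SLC1A4 and SLC6A9 (2.00% of genes), and 0 members were 2-fold lower (1.46%). R213A 1 was 2-fold above control 1 for 0 members (12.8% of genes) and 2-fold below it for SLC7A11, SLC7A1, SLC38A1 and SLC38A2 (7.87%). R213A 3 exceeded R213A 1 for 10 of 10 members, against 51.9% of genes, by 1.17 times for SLC3A2 and SLC43A1 up to 3.27 times for SLC1A4. R213A 2, the only library of its group in the second table, was 2-fold above control 2 for SLC7A11, SLC1A4 and SLC6A9 (1.80% of genes), and no member was 2-fold above control 3 (0.313%). By table, first and then second, the differences were 0.96 and 0.22 for SLC3A2, 0.83 and 0.41 for SLC6A9, and -0.67 and 0.54 for SLC7A11. Without control 2 the 5-library values of these 3 genes were -0.07, -0.18 and -0.15. The first table fitted alone called 184 genes (1.64%) and 0 members.

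Wild-type and R213A matrix gave no called difference between them. The limma fit called 0 of 10 members and 0 of 11193 genes (0%), with 117 genes (1.05%) and 0 members at an unadjusted p under 0.05. That number of genes was 39 without wild type 1, 196 without wild type 2, 41 without R213A 1, 774 without R213A 2 and 333 without control 1, with 0 members in each case. Estimates for wild-type minus R213A matrix were 0.58 ± 0.42 for SLC6A9 with a 95% interval of -0.37 to 1.53, 0.46 ± 0.40 for SLC1A4 with -0.45 to 1.36, and 0.38 ± 0.33 for SLC38A1 with -0.37 to 1.12 (SE, limma adjusted p = 0.996 for each). The other 7 members lay between -0.04 for SLC1A5 and 0.31 for SLC38A2. Wild type 1 was above R213A 1 for 10 of 10 members (48.3% of genes), at least 2-fold so for SLC38A1, SLC1A4 and SLC6A9 (4.11%), and 0 members were 2-fold lower (8.38%), while no member differed 2-fold between wild type 1 and R213A 3 (2.01% of genes higher and 2.93% lower). In the second table the largest difference of a member was 0.13, for SLC6A9. The 4-library table alone called 327 genes (2.92%) and 1 member, SLC6A9, at 1.25 (limma adjusted p = 0.0320), a value that rests on the low level in R213A 1.

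**Figure D3:**
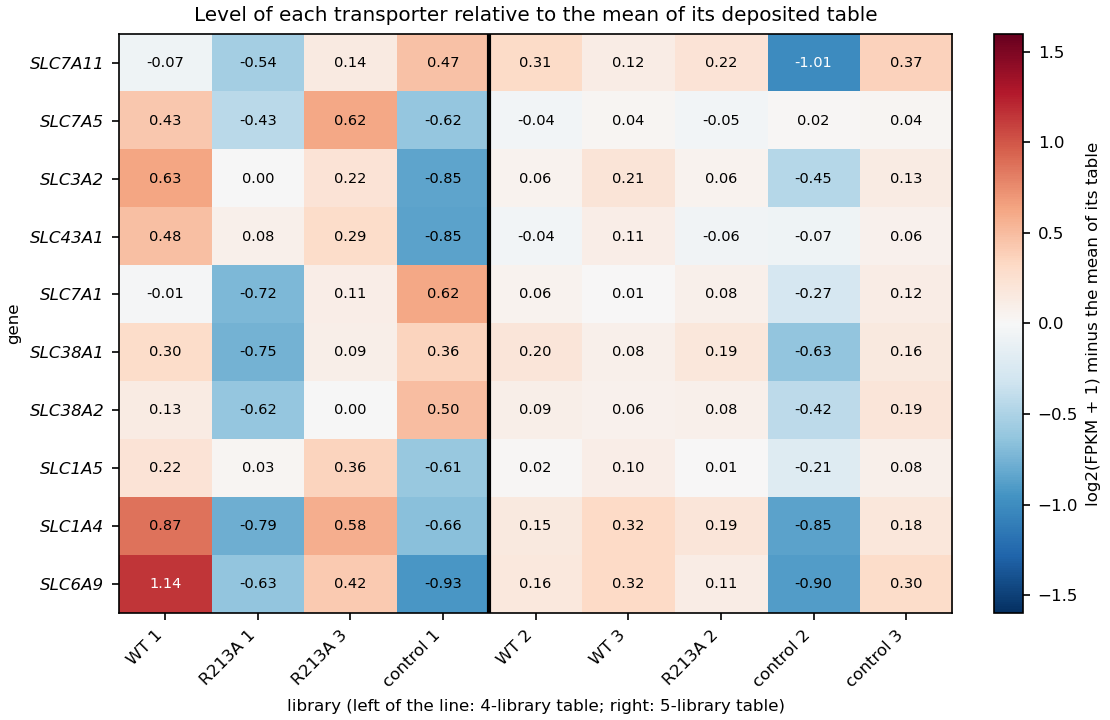
Level of each transporter in each library on the log2(FPKM + 1) scale after subtracting the mean of its deposited table (rows genes, columns libraries, red above and blue below that mean, 4-library table left of the line). SLC6A9 is at 1.14 in wild type 1, -0.93 in control 1 and -0.90 in control 2, and SLC7A11 is at 0.47 in control 1 and -1.01 in control 2.

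After subtraction of the table means, the members formed sets that followed each other over the 9 libraries, given here as descriptions over libraries that share a scaling within each table. SLC38A2 had a Pearson r of 0.95 with SLC38A1 and with SLC7A1, and SLC7A11 an r of 0.89 with SLC38A1 and 0.87 with SLC38A2. SLC1A4 and SLC6A9 had an r of 0.97, and SLC3A2 had 0.92 with SLC1A5, SLC6A9 and SLC43A1. Between these sets r ran from -0.52 for SLC7A1 and SLC43A1 to 0.66 for SLC38A1 and SLC1A4, with 0.09 for SLC7A11 and its heavy chain SLC3A2 and -0.02 for SLC7A11 and SLC7A5. Control 1 was the highest library of its table for SLC7A11, SLC7A1, SLC38A1 and SLC38A2, against 39.0% of genes, and the lowest for SLC7A5, SLC3A2, SLC43A1, SLC1A5 and SLC6A9, against 32.2% of genes. Wild type 1 was the highest for SLC3A2, SLC43A1, SLC1A4 and SLC6A9, against 23.4% of genes, and R213A 1 the lowest for SLC7A11, SLC7A1, SLC38A1, SLC38A2 and SLC1A4, against 33.4%.

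The protein-coding non-members most like SLC7A11 in this measure, among 9951 genes compared, were MPHOSPH8 (r = 0.990), AP5M1 (0.986), FAM208A (0.984), NOP58 (0.980) and NBPF3 (0.980). MPHOSPH8 had 7.87 FPKM in wild type 1, 5.98 and 8.78 FPKM in R213A 1 and 3, and 10.5 FPKM in control 1, and 14.5 and 13.5 FPKM in wild type 2 and 3, 14.4 FPKM in R213A 2, and 7.65 and 13.9 FPKM in control 2 and 3. Most like the mean profile of the members were VEGFA (0.991), EIF5 (0.990), PSPH (0.989), B3GNT10 (0.974) and VLDLR (0.971). That mean profile itself followed SLC1A4 (0.989) and SLC6A9 (0.950) most closely. For the other members r ran from 0.378 for SLC7A1 to 0.764 for SLC3A2. PSPH, the last enzyme of serine synthesis, had 19.3 FPKM in wild type 1, 10.9 and 19.1 FPKM in R213A 1 and 3, and 11.99 FPKM in control 1, and then 23.6 and 24.4 FPKM in wild type 2 and 3, 23.3 FPKM in R213A 2, and 16.4 and 23.5 FPKM in control 2 and 3. VLDLR and PSPH were also on the list of ATF4 pathway genes used here.

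The members differed in listed length and in the gap between the tables. SLC7A11, SLC7A1, SLC38A1 and SLC38A2 were lower in all 4 libraries of the first table than in all 5 of the second, 4 of 10 members against 30.3% of genes, and 0 members were higher in all 4, against 23.7%. The mean of the second table was 6.63 times that of the first for SLC38A2, 6.03 times for SLC7A11, 3.75 times for SLC38A1 and 2.26 times for SLC7A1. SLC43A1 went the other way, with a first-table mean 2.04 times the second. Among all genes tested the gap moved with gene length: its median, first table minus second, was 0.48 on the log2(FPKM + 1) scale in the shortest of 4 length classes of about 2800 genes, 0.06 and -0.24 in the middle classes and -0.55 in the longest. SLC38A1 (10015 bases), SLC7A11 (9645 bases) and SLC7A1 (7692 bases) belonged to the longest class and SLC38A2 (6602 bases) to the next. That class also held SLC1A4 (6939 bases), SLC3A2 (5178 bases), SLC6A9 (5159 bases) and SLC7A5 (4745 bases), whose gaps were -0.08, 0.00, -0.61 and 0.02, against -2.74 for SLC38A2. The length trend also differed between libraries of the first table. Wild type 1 minus control 1 had a median of 0.27 in the shortest and -0.29 in the longest class. For R213A 1 minus control 1 these medians were 0.59 and -0.42, and for R213A 3 minus control 1 they were 0.24 and -0.24. The part of length in the members' differences was not tested beyond a correction for length and GC content, chosen after seeing the data, after which the members' median was 0.37 for wild-type against control matrix and 0.19 for R213A against control matrix, with 0 members called.

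**Figure D4:**
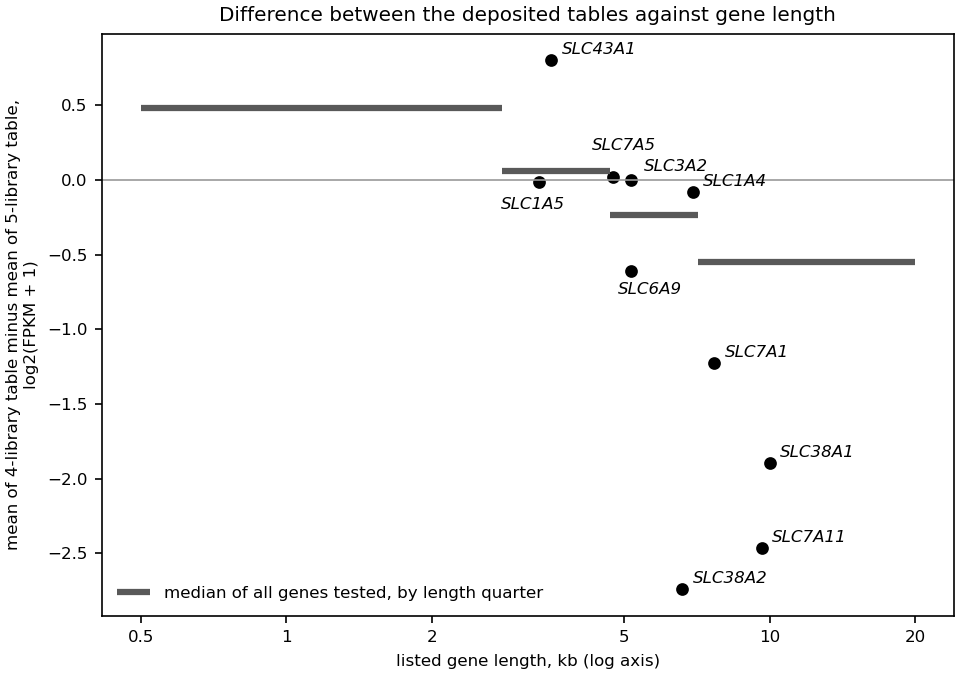
Mean of the 4-library table minus mean of the 5-library table in log2(FPKM + 1) against listed gene length (kb, log axis), with 1 point per transporter and grey bars for the median of all genes tested in each of 4 length classes, the outer bars cut at the edges of the axis. SLC38A2 lies at -2.74, SLC7A11 at -2.46 and SLC38A1 at -1.90, below the median of -0.55 of the longest class, and SLC43A1 lies at 0.80.

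Promoter sequence was read for every member with a promoter entry, whether or not its level moved with others. RefSeq (GRCh38.p14) gave 16 promoter entries for 9 of the 10 members, all but SLC7A11, each covering 250 bases before and 50 after a start, and the downstream bases of 13 entries lay in an annotated transcript of the gene in GENCODE. The letters TGATGNAA, the core of elements bound by ATF4 with C/EBP partners, were searched on both strands and occurred in entries of 5 members (SLC3A2, SLC7A1, SLC38A1, SLC1A5 and SLC1A4), which is 31.2% of the 16 entries against 3.62% of 35116 promoters. The E-box CACGTG, a motif of MYC and related factors that reads the same on both strands, occurred in 18.8% of the entries against 7.26%, and TGACNNNGC, the core of the antioxidant response element of NRF2, in 25% against 13.3%. Both were searched on both strands too, and in the stretches printed here no match overlapped a match of another motif. SLC38A2 and SLC6A9 held none of the 3 motifs in these windows. A match says only that the letters are there. Stretches of 60 bases around a match are shown for a gene of each set and each motif, 5′ to 3′ on the gene's own strand, in lower case with the motif in capitals. They lie at chr2:64989340-64989399 (plus strand) for SLC1A4, chr12:46266513-46266572 (minus strand) for SLC38A1, chr16:87869593-87869652 (minus strand) for SLC7A5 and chr11:62881639-62881698 (plus strand) for SLC3A2. The first 2 carry the ATF4-type letters, the third the E-box and the fourth the antioxidant letters.
SLC1A4: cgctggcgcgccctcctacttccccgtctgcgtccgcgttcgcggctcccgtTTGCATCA
SLC38A1: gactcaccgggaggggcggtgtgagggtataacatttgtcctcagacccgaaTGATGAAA
SLC7A5: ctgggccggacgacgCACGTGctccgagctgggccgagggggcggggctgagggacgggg
SLC3A2: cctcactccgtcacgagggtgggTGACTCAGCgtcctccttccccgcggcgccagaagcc

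In these windows the ATF4-type letters began 7 bases before the start in SLC1A4, where they stand on the opposite strand, and 4 bases before it in SLC38A1. In SLC7A5 the E-box lay farther upstream, and in SLC3A2 the antioxidant letters began 37 bases before the start. The start used for SLC1A4 is the second of 2 in RefSeq, and the SLC38A1 entry is 1 of the 3 whose downstream bases lay in no GENCODE transcript of the gene.

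Lists of related genes were described beside the transporters in the same limma fit, which called 0 genes of any list in any of the 3 comparisons. Of 25 ATF4 pathway genes tested outside transport, 22 were higher and 3 lower on wild-type than on control matrix, with a median log2 difference of 0.48 against -0.03 over all genes, and 1 had an unadjusted p under 0.05. That was SHMT2, the mitochondrial serine to glycine enzyme, at 0.63 ± 0.27 (SE, limma adjusted p = 0.757). The median was 1.37 within the first table, where 12 of the 25 were called when it was fitted alone, against 6.92% of genes and with the wild-type and control libraries single, and -0.01 within the second. Without wild type 1 the pooled median was 0.11 and without control 1 it was 0.29. TRIB3, a pseudokinase target of ATF4, had 316 FPKM in wild type 1, 23.2 and 61.2 FPKM in R213A 1 and 3, and 11.6 FPKM in control 1, but 60.1 and 67.8 FPKM in wild type 2 and 3, 61.2 FPKM in R213A 2, and 63.6 and 61.6 FPKM in control 2 and 3. CHAC1, which degrades glutathione, had 52.8 FPKM in wild type 1, 3.37 and 27.7 FPKM in R213A 1 and 3, and 1.40 FPKM in control 1, with 19.3 and 21.3 FPKM in wild type 2 and 3, 19.0 FPKM in R213A 2, and 11.9 and 21.7 FPKM in control 2 and 3. Wild type 1 was the high library for both genes, and control 1 the low one. For R213A against control matrix the list had 14 genes higher and 11 lower, with a median of 0.20. That median was 0.52 in the first table and -0.04 in the second, 0.37 without R213A 1, 0.03 without R213A 2, -0.10 without R213A 3 and -0.42 without control 1.

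Among 16 partners of cystine and glutathione metabolism, 13 were higher and 3 lower on wild-type than on control matrix, with a median of 0.27. It was 0.39 in the first table and 0.14 in the second, 0.07 without wild type 1 and 0.16 without control 1. CBS, the first enzyme of the transsulfuration route to cysteine, had an estimate of 0.69 ± 0.29 (SE, limma adjusted p = 0.757), and NQO1, a target of NRF2, one of 0.53. NQO1 stood at 207 FPKM in wild type 1, 144 and 149 FPKM in R213A 1 and 3 and 75.6 FPKM in control 1, and at 43.7 to 54.2 FPKM in the second table. For R213A against control matrix 8 were higher and 8 lower, with a median of -0.09 that ran from -0.25 to 0.14 as single libraries were left out. Of 14 enzymes of glutamine and glutamate, 5 were higher and 9 lower on wild-type matrix (median -0.21), with PPAT, the glutamine-consuming first step of purine synthesis, at -0.59 (limma adjusted p = 0.757) and glutamine synthetase (GLUL) at -0.39. The median of this list was -0.60 in the first table and 0.01 in the second, -0.05 without wild type 1, and 0.05 with 7 higher and 7 lower without control 1. On R213A matrix 7 were higher and 7 lower than on control matrix (median -0.03).

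Of 36 other amino acid transporters of the plasma membrane only 6 passed the filter, and the other 30 reached at most 1.92 FPKM, 9 of them at 0 in all libraries. Of the 6, 3 were higher and 3 lower on wild-type than on control matrix, with a median of -0.11. SLC7A2, a second arginine carrier, had 2.66 FPKM in wild type 1, 5.59 and 5.99 FPKM in R213A 1 and 3, and 9.96 FPKM in control 1, and 8.96 to 11.8 FPKM in the second table, with a pooled estimate of -0.63 (limma adjusted p = 0.757). SLC6A6, the taurine carrier, had 3.23 FPKM in wild type 1, 5.21 and 6.32 FPKM in R213A 1 and 3, and 14.1 FPKM in control 1, and 17.8 to 22.2 FPKM in the second table, with an estimate of -0.71 (limma adjusted p = 0.757). Both were lowest in wild type 1 and highest in the control within the first table, the reverse of SLC6A9 and SLC3A2. The 6 lysosomal transporters tested had 4 higher and 2 lower (median 0.15), with the cystine exporter CTNS at 0.43. CTNS had 7.96 FPKM in wild type 1 and 6.69 FPKM in control 1. In the second table it had 5.56 and 5.22 FPKM in wild type 2 and 3, and 1.99 and 5.47 FPKM in control 2 and 3. The 10 mitochondrial carriers had 4 higher and 6 lower (median -0.03), with SFXN1, the serine carrier, at -0.49. For R213A against control matrix the medians of these 3 lists were -0.05, -0.04 and 0.05. As single libraries were left out, the 3 medians ran from -0.33 to 0.01, 0.01 to 0.23 and -0.11 to 0.16 for wild-type matrix, and from -0.14 to 0.18, -0.14 to 0.11 and -0.02 to 0.18 for R213A matrix.

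Amino acid sensing upstream of mTORC1 was covered by 28 tested genes, 17 higher and 11 lower on wild-type than on control matrix (median 0.08). RRAGA, a Rag GTPase of the lysosomal sensing complex, had an estimate of 0.51 (limma adjusted p = 0.757) and SESN2, a leucine sensor, one of 1.24 ± 0.76 (SE, limma adjusted p = 0.757). SESN2 had 69.9 FPKM in wild type 1 and 3.72 FPKM in control 1, the single libraries of their groups in the first table. In the second table it had 16.9 and 19.3 FPKM in wild type 2 and 3, and 22.3 and 16.9 FPKM in control 2 and 3. Of 10 transcription and turnover factors of the transporters, 3 were higher and 7 lower (median -0.14), with HIF1A at -0.56 and the ubiquitin ligase NEDD4 at -0.51. For R213A against control matrix the sensing genes had a median of 0.01 and the factors one of -0.18. With single libraries left out, the sensing median ran from 0.01 to 0.11 for wild-type and from -0.05 to 0.03 for R213A matrix, and that of the factors from -0.23 to -0.03 and from -0.27 to -0.04.

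Transcripts listed for RNA quality also differed between wild type 1 and control 1, the single libraries of their groups in the first table. All 20 ribosomal protein genes tested were higher on wild-type than on control matrix, with a pooled median of 0.24, and with 0.82 and -0.06 as the medians of the first and the second table. The 13 protein-coding genes of the mitochondrial genome had a pooled median of -0.19, with -0.80 and 0.22 in the tables. Without control 1 the ribosomal median was -0.10, with 1 of 20 genes higher, and the mitochondrial one 0.07, while without wild type 1 they were 0.13 each. For R213A against control matrix the ribosomal median was 0.41 and the mitochondrial one -0.08, against -0.04 and 0.33 without control 1. The summed ribosomal level was 6537 to 14591 FPKM on wild-type matrix, 6510.2 to 19072 FPKM on R213A matrix and 6327 to 7946 FPKM on control matrix, and the mitochondrial sum 13900.5 to 18276, 16393 to 22616 and 12563 to 22218 FPKM. Their part in the transporter differences was not tested. In bulk RNA of this kind, fewer cells expressing a transporter and less of its RNA per cell cannot be told apart.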

How the data were processed

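RNA from 9 PaTu 8988t samples was sequenced from libraries made with the Illumina TruSeq stranded mRNA method, from about 500 ng of total RNA, per the labels' protocols. The build hg38 and the converter bcl2fastq are named in the submitters' processing notes, whereas no aligner, counter or annotation release is named there. The deposited values are FPKM per gene, which the authors supplied in a 4-library and a 5-library table. FPKM times gene length gave whole reads for 100% of values, within 0.01 reads, with a library scaling that differed from the read totals by factors of 0.850 to 1.09. A count of 0 allows up to 3 reads, for counting error only. Depth is given with the results.

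Levels were set to log2(FPKM + 1), which understates changes of low genes, and genes whose mean reached 1 FPKM were fitted with limma 3.58.1 (R 4.3.3, trended variance, 5 residual degrees of freedom), with the group and the table as terms, so that differences form within tables. P-values took the Benjamini-Hochberg adjustment over 11193 genes (threshold 0.05), and the fit was tested on simulated data. The members and lists were chosen with earlier results of these data known, so no list is tested and none is independent evidence. The text names all members, from each list up to 4 genes of smallest p for wild-type against control matrix (a part of these is printed), and the 5 genes of highest table-centred Pearson r. Alternatives changed the pseudocount, filter, scaling, table and replicate terms, variance model, libraries in the fit, limma-voom on recovered reads, and a length and GC correction; the last, and the 5-library table without control 2, were chosen after seeing the data.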

Additional observations from a re-analysis of the deposited data

How the results depend on the processing

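Under the alternatives, 777 estimates of members were recomputed, of which 692 kept the sign and the side of the threshold, 82 changed sign and 3 passed the threshold. The main fit called 0 members, so no call could be lost. Some estimates could not move, as without the trended variance, or for wild-type minus control with an R213A library left out. The 692 thus include estimates whose sign was fixed in advance. Fitting the 4-library table alone called 775, 184 and 327 genes and 2, 0 and 1 members, in the order wild-type minus control, R213A minus control and wild-type minus R213A. SLC6A9 (2.07) and SLC1A4 (1.54) then passed against control and SLC6A9 (1.25) against R213A, with a spread taken from 1 pair of libraries. Signs changed there for wild-type minus control in SLC7A11 (-0.55), SLC38A1 (-0.065) and SLC38A2 (-0.37) and for wild-type minus R213A in SLC1A5 (0.019). The 5-library table alone called 0 genes, and signs changed for wild-type minus control in SLC7A5 (-0.032) and SLC7A1 (0.11), for R213A minus control in SLC7A11 (0.54), SLC7A5 (-0.078), SLC7A1 (0.15), SLC38A1 (0.42), SLC38A2 (0.19) and SLC43A1 (-0.055) and for wild-type minus R213A in SLC7A11 (-0.013), SLC7A1 (-0.044), SLC38A1 (-0.047) and SLC1A5 (0.053). Without control 2 as well, that table called 14, 16 and 0 genes and 0 members, and signs changed for wild-type minus control in SLC7A11 (-0.16), SLC7A5 (-0.040), SLC38A1 (-0.019), SLC38A2 (-0.11), SLC1A5 (-0.024), SLC6A9 (-0.054) and SLC43A1 (-0.030), for R213A minus control in SLC7A5 (-0.086), SLC3A2 (-0.072), SLC38A1 (0.028), SLC1A5 (-0.077), SLC6A9 (-0.18) and SLC43A1 (-0.13) and for wild-type minus R213A in SLC7A11 (-0.013), SLC7A1 (-0.044), SLC38A1 (-0.047) and SLC1A5 (0.053). The cause of these changes was not tested.

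Weights per library called 6 and 7 genes against control, and signs changed for wild-type minus control in SLC7A11 (-0.087) and SLC38A2 (-0.083), for R213A minus control in SLC38A1 (0.045) and SLC43A1 (-0.011) and for wild-type minus R213A in SLC7A11 (-0.031), SLC7A5 (-0.017), SLC7A1 (-0.033), SLC38A1 (-0.022) and SLC1A5 (0.0047). Without a filter on low values 1 gene was called in each comparison with control. Signs also changed under quantile scaling for R213A minus control in SLC7A11 (0.060) and for wild-type minus R213A in SLC1A5 (0.14), under the median of ratios for R213A minus control in SLC7A11 (0.012), after the length and GC correction for R213A minus control in SLC7A11 (0.26) and SLC38A1 (0.094) and for wild-type minus R213A in SLC1A5 (0.071), under limma-voom for wild-type minus R213A in SLC1A5 (0.076), with only the 2 groups compared for wild-type minus R213A in SLC1A5 (0.036), and without the table term for wild-type minus R213A in SLC43A1 (-0.19). The cause was not tested. The scalings moved the median of all genes by at most 0.023 on the log2 scale. limma-voom called 0 genes, with 423, 214 and 101 genes at an unadjusted p under 0.05.

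A replicate block called 0 genes, in place of the table term or beside it. Beside it, signs changed for R213A minus control in SLC7A11 (0.0013) and SLC7A5 (-0.024) and for wild-type minus R213A in SLC1A5 (0.012); in its place, for wild-type minus R213A in SLC43A1 (-0.19). The numbers were not taken as pairing the samples. Deviations of same-numbered libraries correlated at -0.70 for wild type 3 with R213A 3 and at -0.65 for R213A 3 with control 3, and 6 of 9 libraries correlated best with a library of their own number. These deviations were taken from group means, with the gap between the tables left in. Library pairs within a table all correlated positively, and pairs across the tables all negatively. The correlations thus follow the tables and cannot decide whether the numbers pair the samples.

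Leaving out each library in turn called 0 genes and 0 members in every comparison, and 27 of 270 estimates changed sign. The 270 include wild-type minus control without an R213A library, where the estimates could not move. Of members that changed sign, the range over these fits was, for wild-type minus control, -0.34 to 0.56 for SLC7A11, -0.36 to 0.17 for SLC7A1, -0.081 to 0.48 for SLC38A1 and -0.25 to 0.27 for SLC38A2. For R213A minus control it was -0.44 to 0.50 for SLC7A11, -0.18 to 0.45 for SLC7A5, -0.68 to 0.043 for SLC7A1, -0.54 to 0.20 for SLC38A1, -0.62 to 0.047 for SLC38A2 and -0.12 to 0.61 for SLC43A1. For wild-type minus R213A it was -0.040 to 0.49 for SLC7A11, -0.22 to 0.35 for SLC7A5, -0.17 to 0.31 for SLC3A2, -0.033 to 0.54 for SLC7A1, -0.21 to 0.069 for SLC1A5, -0.0080 to 0.78 for SLC6A9 and -0.27 to 0.19 for SLC43A1. For wild-type minus control SLC6A9 ran from 0.61 to 1.499, SLC1A4 from 0.58 to 1.24 and SLC3A2 from 0.37 to 0.96. Depth limits SLC6A9 most, with 80 reads in control 1.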
